A study of Homo sapiens
Mus musculus with 16 samples.

Results

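The 38 genes described here are mouse genes of 2 connected programmes, the response to low oxygen (20 genes) and the transport and breakdown of glucose (18 genes), read in the host tissue of human tumours grown in mice. They were taken by symbol from the mouse expression table, where all 38 of 38 symbols were found among 23337 listed genes, and the same symbols were read in the human table of the same libraries. A level of at least 1 in at least 4 libraries was asked for before testing, which 37 of the 38 genes and 17484 of all mouse genes passed. Eno1 was the exception.

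The tumours were ScaBER xenografts, grown from an established human squamous carcinoma line of the bladder in Hsd:Athymic Nude-Foxn1nu mice, which lack a working thymus and most mature T cells. Every group was sampled at day 14 of treatment. The vehicle group received 0.5% methylcellulose with 0.1% Tween80, the nintedanib group 40 mg/kg of nintedanib, the alpelisib group 25 mg/kg of alpelisib (BYL719), and the combination group both drugs at these doses, with 4 libraries in each group and 16 in all. Nintedanib inhibits the receptor kinases of VEGF, PDGF and FGF, and alpelisib inhibits the alpha isoform of PI3-kinase. The labels do not say whether each library is a separate animal, so p-values measure only the spread between these libraries, which may be partly technical.

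Cells sense oxygen through prolyl hydroxylases, which mark the alpha subunits of the hypoxia-inducible factors for destruction as long as oxygen is present. When oxygen is short the factors persist and switch on genes for glucose uptake, glycolysis, mitochondrial restraint, collagen processing and vessel growth, and among their targets are several of the hydroxylases themselves. In a tumour these genes are read in the cancer cells and in the fibroblasts, macrophages, vessel cells and neighbouring tissue of the host alike, and drugs that act on vessels can alter the supply of oxygen to both.

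Libraries were 3′ tag libraries, and each value is the number of reads of a gene divided by 1 size factor per library, here called the normalised value. Recovered read totals ran from 3606008 to 6850491 in the mouse table and from 8303617 to 18568119 in the human table, and mouse reads made up 19.3% (vehicle 3) to 34.0% (nintedanib 4) of a library. All listed fibroblast, macrophage, pericyte and endothelial markers had reads in every library. The neutrophil gene Ngp was at 0 in 5 libraries, and Hba-a1 and Hba-a2 of red blood cells were at 0 in all 16. Nintedanib 4 and combination 1 were rich in skeletal muscle RNA, whose marker genes made up 4.73% and 3.02% of their mouse reads, against 0.00267% to 0.741% in the other 14 libraries. Markers of fat were highest in vehicle 1 and alpelisib 4, at 0.506% and 0.364% of mouse reads. Bulk libraries cannot tell fewer cells of a type from less RNA per cell.

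Most host hypoxia and glycolysis genes had higher fitted values under nintedanib and under the combination than under vehicle, and none of the 37 tested genes passed the test in any comparison. For nintedanib against vehicle the fitted log2 difference was above 0 for 33 of 37 genes with a median of 0.48, beside 52% of all tested mouse genes and a median of 0.02. For the combination against vehicle it was above 0 for 36 of 37 genes with a median of 0.45, beside 53% and 0.03. For alpelisib against vehicle it was above 0 for 11 of 37 genes with a median of -0.10, beside 51.5% and 0.01. These comparisons share the 4 vehicle libraries, so their values are given side by side and are not independent of each other. With nintedanib averaged over alpelisib (the mean of nintedanib and combination minus the mean of vehicle and alpelisib, 8 libraries against 8), 36 of 37 genes were above 0 with a median of 0.50, beside 52.5% and 0.02.

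With limma and Benjamini-Hochberg adjustment over all 17484 genes, 0 of 37 members passed an adjusted p of 0.05 for nintedanib against vehicle (0% of all genes), alpelisib against vehicle (0%), the combination against vehicle (0.0515%), the combination against nintedanib (0%), the combination against alpelisib (0%), the interaction of the drugs (0%), and nintedanib averaged over alpelisib (0.0972%). At an unadjusted p under 0.05, 5 members were higher for nintedanib against vehicle (3.04% of all genes), 8 for the combination against vehicle (4.28%) and 13 for nintedanib averaged over alpelisib (4.4%). In the same comparisons 0 members were lower, beside 2.97%, 3.39% and 4.4% of all genes. For alpelisib against vehicle the count was 1 higher (2.01%) and 0 lower (1.25%). The combination had 9 members higher (2.77%) and 0 lower (2.99%) than alpelisib, and 0 higher (2.72%) and 0 lower (2.42%) than nintedanib. On the recovered reads, edgeR's quasi-likelihood test and limma-voom called 0 members in every comparison. DESeq2 called 0 members in 6 comparisons and 3 (Ldha, Pdk1 and Pgk1) for nintedanib averaged over alpelisib, in which it called 158 of all genes.

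A few libraries stood apart for most members, as the colour map of all members by library shows. Vehicle 2 was below the 16-library median for 36 of 37 members and was the lowest vehicle library for 30. Nintedanib 4 was below it for 28 members and was the lowest of its group for 29. Alpelisib 3 was the highest of its group for 27 members, while alpelisib 1, 2 and 4 were below the 16-library median for 30, 33 and 33. Without vehicle 2 the median for nintedanib against vehicle was 0.24 (24 of 37 genes above 0), that for the combination against vehicle 0.30 (26 of 37), and that for nintedanib averaged over alpelisib 0.43 (35 of 37). The 17 glycolysis and transport genes then had a median of -0.01 for nintedanib (8 of 17 above 0) and 0.06 for the combination (9 of 17), and the 20 hypoxia genes 0.32 (16 of 20) and 0.35 (17 of 20). Leaving out 1 library at a time turned the sign of 14 of 37 members in each of these comparisons with vehicle, of 21 for alpelisib against vehicle and of 1 (Pgam1) for nintedanib averaged over alpelisib.

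**Figure D1:**
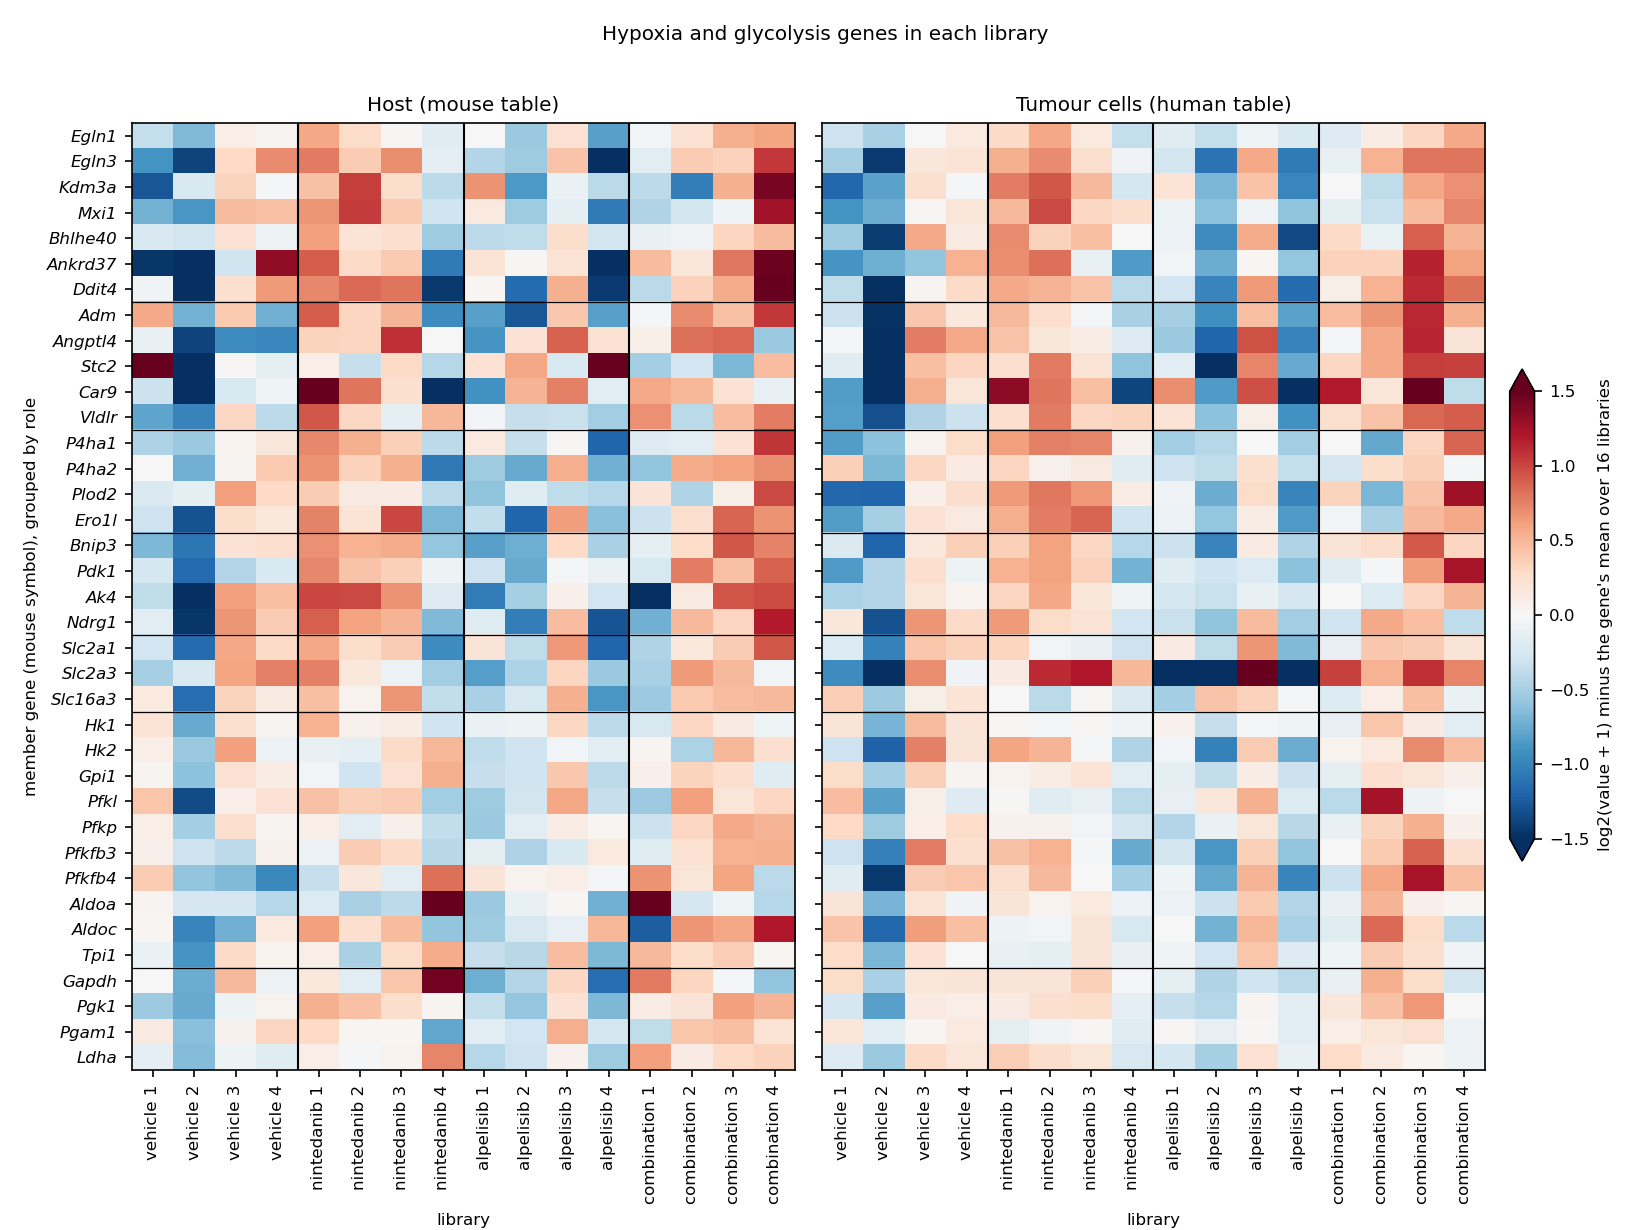
Each cell is a gene's log2(normalised value + 1) in 1 library minus its mean over the 16 libraries, for 37 members (rows, grouped by role) in the mouse table on the left and the same symbols in the human table on the right; red is above and blue below that mean, with colours capped at 1.5. Vehicle 2 is blue for nearly every gene in both tables, and nintedanib 1 to 3, alpelisib 3 and combination 2 to 4 are mostly red in both.

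The genes of oxygen sensing and its regulators (7 members) include the feedback arm of the response. All 7 were above 0 for nintedanib against vehicle (median 0.62) and for the combination against vehicle (median 0.55), and none passed the test. Without vehicle 2 the medians were 0.27 and 0.37, and Ddit4 was at -0.04 for nintedanib. Egln1, the main prolyl hydroxylase that marks hypoxia-inducible factors for destruction, was at 282, 228, 387 and 373 in the vehicle libraries, 542, 435, 366 and 317 with nintedanib, 361, 244, 423 and 204 with alpelisib and 349.8, 424, 524 and 545 with the combination. The combination and vehicle ranges overlapped in 1 combination library, which lay below the highest vehicle libraries. The fitted log2 difference was 0.39 (95% interval -0.12 to 0.90) for nintedanib and 0.55 (0.04 to 1.06) for the combination, with limma adjusted p-values of 0.882 and 0.617.

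Egln3, a second prolyl hydroxylase and itself a strongly oxygen-regulated gene, was at 77.5, 54.7, 177 and 237 in vehicle, 248, 188, 236 and 130.5 with nintedanib, 107, 99.8, 195 and 50.1 with alpelisib and 128, 188, 185 and 303 with the combination. Vehicle libraries 1 and 2 were low and 3 and 4 were within the range of the drug groups. Ddit4, an inhibitor of mTOR complex 1 signalling that is switched on by low oxygen and other stresses, was at 973, 251, 1195 and 1571 in vehicle, 1674, 1829.6, 1769.8 and 369 with nintedanib, 1030.4, 453, 1461 and 373 with alpelisib and 764, 1286, 1493 and 3508 with the combination. Nintedanib 4, vehicle 2 and alpelisib 2 and 4 formed the low end, and combination 4 stood at the top. Mxi1, a repressor that opposes Myc, ran from 587 (alpelisib 4) to 2933 (combination 4), and its group means were 1193 ± 561 in vehicle, 1768 ± 646 with nintedanib, 977 ± 334 with alpelisib and 1501 ± 961 with the combination (SD, n = 4).

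Of the remaining regulators, Kdm3a, a histone demethylase, differed by 0.63 for nintedanib and 0.43 for the combination on the log2 scale. Without combination 4 the combination difference was -0.0045 for Kdm3a and -0.10 for Mxi1. Bhlhe40, a clock-linked repressor, differed by 0.22 and 0.25. Ankrd37, a small ankyrin-repeat gene among the most oxygen-responsive in many cells, had one of the 3 lowest mean values of the set. It was at 6.45, 4.98, 15.7 and 50.5 in vehicle, 37.3, 24, 25.8 and 8.85 with nintedanib, 22.7, 19.8, 22.5 and 5.48 with alpelisib and 27.4, 22.2, 34.4 and 55.8 with the combination. Vehicle 4 alone was as high as the upper combination libraries, and the fitted difference for the combination, 1.28, had an interval of -0.04 to 2.59.

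The secreted and cell-surface genes (5 members) held the member with the smallest p for nintedanib against vehicle. Angptl4, a secreted inhibitor of lipoprotein lipase that responds to low oxygen and to fatty acids, was at 184, 75.9, 104 and 101 in vehicle, 253, 251, 428 and 199 with nintedanib, 108, 232, 371 and 234 with alpelisib and 213, 356, 364 and 136 with the combination. All 4 nintedanib libraries lay above all 4 vehicle libraries, while alpelisib 1 and combination 4 lay inside the vehicle range. Its fitted log2 difference from vehicle was 1.29 ± 0.37 (SE) for nintedanib, 0.97 ± 0.37 for alpelisib and 1.16 ± 0.37 for the combination. In limma the unadjusted p was 0.00216, 0.0161 and 0.00492 in that order, and the adjusted p 0.516, 1 and 0.389.

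Angptl4 was also the 1 member with an unadjusted p under 0.05 for the interaction, where 1.62% of all genes were higher and 1.5% lower at that level. The interaction, the combination difference minus the sum of both single-drug differences, was -1.10 (-2.18 to -0.01), with a limma p of 0.0474 and an adjusted p of 1. ANGPTL4 in the tumour cells had group means of 1311 ± 756 in vehicle, 1305 ± 231 with nintedanib, 1051 ± 839.8 with alpelisib and 1715 ± 638 with the combination (SD, n = 4). In the human gene the alpelisib mean was the lowest of the 4.

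Vldlr, a receptor for triglyceride-rich lipoproteins, was at 43.3, 37.3, 94.1 and 57.3 in vehicle, 145, 94.1, 68 and 107 with nintedanib, 73.7, 59.3, 59.8 and 52.5 with alpelisib and 122, 56.8, 104 and 129.8 with the combination. Vehicle 3 lay inside the range of both nintedanib-treated groups and combination 2 inside that of vehicle. The fitted difference was 0.86 (0.20 to 1.53) for nintedanib and 0.84 (0.18 to 1.51) for the combination, with limma adjusted p-values of 0.705 and 0.518. With the largest share of reads that could be human in origin subtracted (described with the dependence on processing), the nintedanib difference of Vldlr was -0.74. That subtraction sets the library with the lowest mouse to human ratio to 0, which for Vldlr was nintedanib 3, so it lowers the nintedanib value by construction. The part of human reads in the Vldlr values was not tested.

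Adm, which encodes the vasodilator peptide adrenomedullin, was at 302, 124, 268 and 123 in vehicle, 383, 255, 289 and 105 with nintedanib, 115, 83.2, 269 and 115 with alpelisib and 200.4, 334, 276 and 424 with the combination. Its largest difference lay between the combination and alpelisib, 1.17 (0.34 to 2.01), with a limma adjusted p of 0.717. Car9, the membrane carbonic anhydrase that acidifies the space outside hypoxic cells, had low host values, at 14.8, 4.98, 15.7 and 17.7 in vehicle, 55, 33.2, 22.3 and 5.53 with nintedanib, 9.44, 27, 32.1 and 16.4 with alpelisib and 28.1, 26.8, 21.8 and 17.2 with the combination. Its nintedanib group alone spanned nearly the full range of the gene, from the lowest but 1 to the highest library.

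Stc2, a secreted glycoprotein called stanniocalcin 2, was the 1 member below 0 for nintedanib averaged over alpelisib, at -0.35 (-1.34 to 0.64). Against vehicle it was at 0.21 for nintedanib and 0.05 for the combination, and at -0.61 and -0.77 without vehicle 2. Its values were 73.8, 2.49, 22.9 and 20.5 in vehicle and 26.4, 34.3, 19.1 and 95.6 with alpelisib, and between 13.8 and 31.4 in the 8 libraries that received nintedanib. Its highest values, 73.8 and 95.6, were in vehicle 1 and alpelisib 4, which were also the 2 libraries with the highest share of fat marker reads. The part of fat tissue in the Stc2 values was not tested.

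The collagen and protein-folding enzymes (4 members) had medians of 0.35 for nintedanib and 0.41 for the combination, and of 0.13 and 0.24 without vehicle 2. P4ha1, the catalytic subunit of collagen prolyl 4-hydroxylase, had means of 293 ± 72.5 in vehicle, 422 ± 125 with nintedanib, 275 ± 98.4 with alpelisib and 414 ± 189 with the combination (SD, n = 4). Ero1l, the oxidase that forms disulfide bonds in the endoplasmic reticulum, had 259 ± 106, 400.3 ± 178, 249 ± 141 and 398 ± 134 in the same order. P4ha2, an alternative catalytic subunit of the same hydroxylase, differed by 0.19 for nintedanib and 0.39 for the combination, and by -0.02 and 0.18 without vehicle 2.

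Plod2, the lysyl hydroxylase that sets stable collagen cross-links, had the second smallest p of the members for alpelisib against vehicle. It was at 349, 369, 624 and 501 in vehicle, 531, 447, 445 and 307 with nintedanib, 267, 359.8, 312 and 304 with alpelisib and 465, 298, 435 and 811 with the combination. The alpelisib libraries were closely spaced at the low end, and alpelisib 2 lay above vehicle 1. The fitted difference for alpelisib was -0.54 (-1.07 to 0.00), with a limma p of 0.0503 and an adjusted p of 1.

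Pdk1, pyruvate dehydrogenase kinase 1, which keeps pyruvate out of the mitochondrial citric acid cycle, had the smallest p of all members for the combination against vehicle. It was at 54.4, 28.6, 48.3 and 56 in vehicle, 109, 88.6, 84.4 and 61.9 with nintedanib, 52.9, 38.5, 64.1 and 61.1 with alpelisib and 55.5, 112, 89.4 and 122 with the combination. All 4 nintedanib libraries were above all 4 vehicle libraries, and 3 of the 4 combination libraries were above every vehicle and alpelisib library. Combination 1 was the exception, at 55.5.

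The fitted log2 difference of Pdk1 from vehicle was 0.88 ± 0.30 (SE) for nintedanib and 0.99 ± 0.30 for the combination, with limma adjusted p-values of 0.647 and 0.377, and 0.23 ± 0.30 for alpelisib. For nintedanib averaged over alpelisib it was 0.82 (0.38 to 1.27), with a limma adjusted p of 0.178. Without nintedanib 4 and combination 1, the 2 libraries rich in muscle RNA, that difference was 1.01 with an adjusted p of 0.0439, where 54 of all 17095 genes passed. Without vehicle 2 it was 0.71.

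Bnip3, a mitochondrial protein that promotes the removal of mitochondria under low oxygen, was at 322, 243, 599 and 614 in vehicle, 829, 739, 755 and 343 with nintedanib, 292, 309, 635 and 368 with alpelisib and 467, 625, 985 and 862 with the combination. Nintedanib 4 was among the lower vehicle and alpelisib libraries, and the other nintedanib libraries exceeded every vehicle library. Its difference for nintedanib averaged over alpelisib was 0.75 (0.25 to 1.25) with a limma adjusted p of 0.296. Bnip3 and the other genes named outside the naming rule (among them Egln1, Egln3, Ddit4, Mxi1 and Adm) were chosen after their values were seen.

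Ndrg1, a stress-responsive gene induced in hypoxic and differentiating cells, had one of the 3 highest mean values of the set, at 2092, 849.7, 3686 and 3037 in vehicle, 4333, 3556, 3329 and 1479 with nintedanib, 2064, 1136, 3217 and 948 with alpelisib and 1421, 3283, 2923 and 5331 with the combination. Every group held both low and high libraries, and its intervals held 0 in all comparisons with vehicle. Ak4, a mitochondrial adenylate kinase, was at 39.7, 12.4, 79.7 and 71 in vehicle and 104, 104, 83.2 and 45.3 with nintedanib. Its alpelisib values were 24.6, 36.4, 54.6 and 42.3 and its combination values 17.7, 56.8, 101 and 103, with vehicle 2 and combination 1 as the lowest libraries. Its combination difference of 0.47 was -0.08 without vehicle 2.

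**Figure D2:**
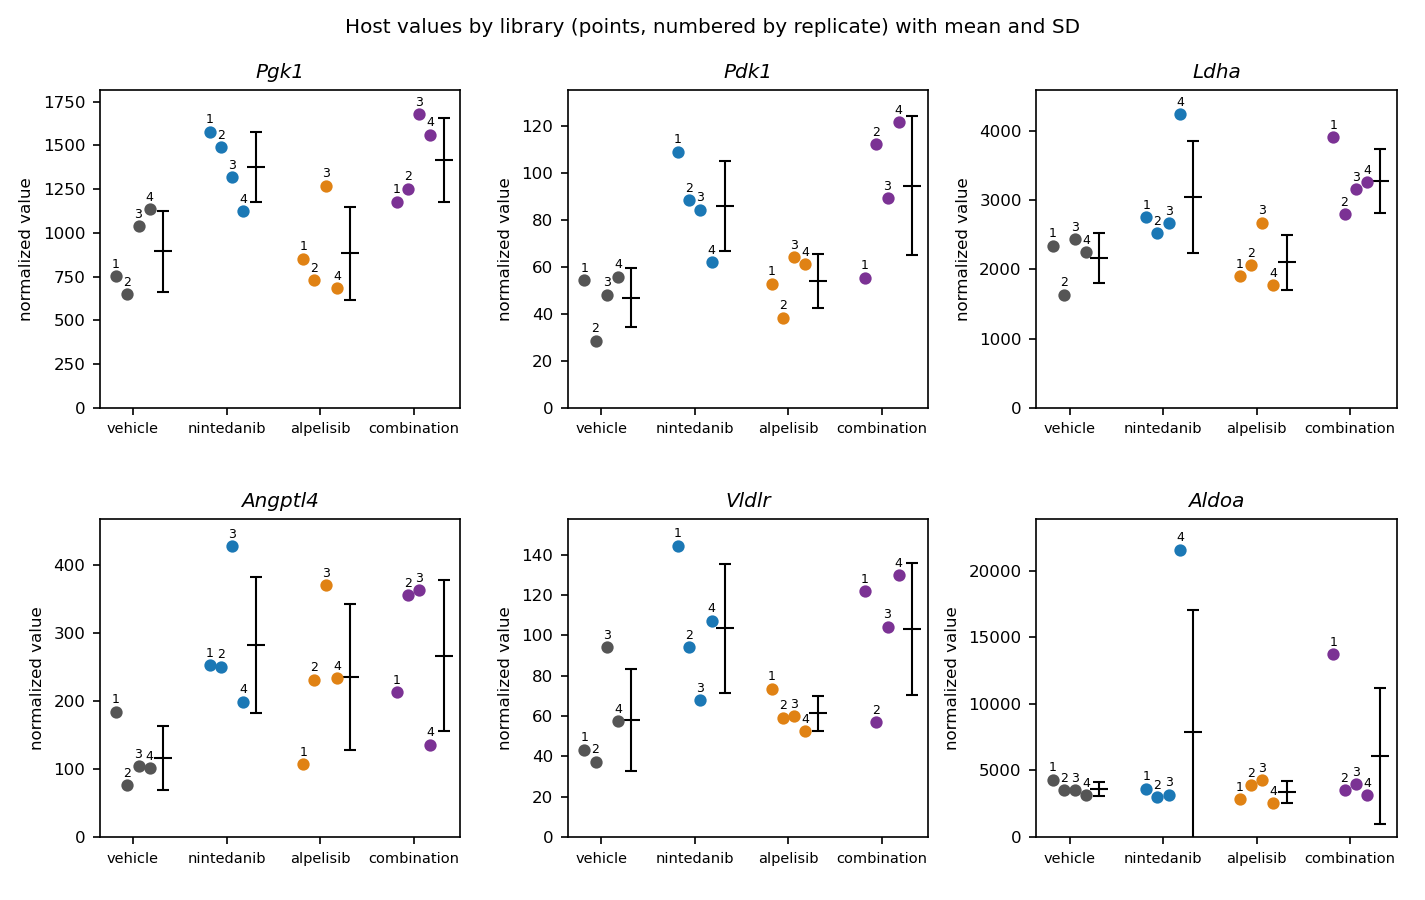
Normalised value (linear axis from 0) of 6 host genes in each library, as numbered points by treatment group, with the group mean and SD (n = 4) beside them; the lower SD bar of Aldoa with nintedanib is cut at 0. Pgk1, Pdk1 and Ldha lie higher in most nintedanib and combination libraries, whereas Aldoa is set apart only in nintedanib 4 and combination 1.

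Of the transporters (3 members), Slc2a1, the widespread glucose transporter GLUT1, was at 1024, 557, 1861 and 1519 in vehicle, 1868, 1493, 1623 and 649 with nintedanib, 1425, 955, 1956 and 547 with alpelisib and 911, 1389, 1625 and 2377 with the combination. The groups overlapped over most of their ranges, and its nintedanib difference of 0.22 was -0.12 without vehicle 2. Slc2a3, the high-affinity glucose transporter GLUT3, had means of 61 ± 25.1, 56.8 ± 21.8, 40.8 ± 15.9 and 59.6 ± 20.3 (SD, n = 4) in the order vehicle, nintedanib, alpelisib and combination. Its alpelisib difference of -0.54 (-1.32 to 0.24) was among the 4 smallest p-values of that comparison, with a limma p of 0.161 and an adjusted p of 1. Slc16a3, the lactate exporter MCT4, had means of 913 ± 334, 1109 ± 329, 828 ± 368 and 1115 ± 318 in that order. Without vehicle 2 its difference from vehicle was -0.0056 for nintedanib and -0.0039 for the combination, where it was 0.33 and 0.33 with all libraries.

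The glycolysis genes from hexokinase to triose phosphate isomerase (10 members) had medians of 0.23 for nintedanib, -0.06 for alpelisib and 0.36 for the combination. Without vehicle 2 these medians were 0.0068, -0.25 and 0.17. Hk1 and Hk2, the hexokinases that trap glucose in the cell, differed from vehicle by 0.17 and 0.12 for nintedanib and by 0.11 and 0.06 for the combination. Gpi1, glucose-6-phosphate isomerase, differed by 0.16 and 0.18. The intervals of all 3 genes held 0 in both comparisons, with upper bounds no higher than 0.66 on the log2 scale. All 6 values turned sign without vehicle 2, to between -0.08 and -0.02 for nintedanib and between -0.13 and -0.0057 for the combination.

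Pfkl and Pfkp, the liver and platelet types of phosphofructokinase, differed by 0.32 and -0.06 for nintedanib and by 0.30 and 0.29 for the combination. Without vehicle 2 Pfkl was at -0.07 and -0.10, and Pfkp at -0.22 and 0.13. Pfkfb3, which makes the allosteric activator of phosphofructokinase, differed by 0.18 and 0.42. Pfkfb4, a related enzyme, was at 106, 53.5, 50.7 and 40.9 in vehicle, 63.4, 91.3, 72.7 and 145 with nintedanib, 92.6, 84.2, 86.7 and 79.1 with alpelisib and 129, 92.1, 123 and 60.8 with the combination. Vehicle 1 alone exceeded all 4 alpelisib libraries, and the alpelisib difference was 0.54 (-0.12 to 1.20) with a limma p of 0.106 and an adjusted p of 1.

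Aldoa, the aldolase of muscle and most other tissues, had the highest mean value of the set and was dominated by 2 libraries. It was at 4303, 3516, 3509 and 3124 in vehicle, 3639.8, 2989, 3194 and 21609 with nintedanib, 2838, 3887, 4253 and 2542 with alpelisib and 13755, 3509, 3989.6 and 3122 with the combination. Nintedanib 4 and combination 1, the libraries with the most skeletal muscle RNA, were the highest, and the other 14 libraries lay between 2542 and 4303. For nintedanib averaged over alpelisib the fitted difference of Aldoa was 0.56 with all libraries and -0.02 without these 2.

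Gapdh, the glyceraldehyde-3-phosphate dehydrogenase of glycolysis, was at 1462, 872, 2053 and 1378 in vehicle, 1639, 1300.0, 1955 and 3998 with nintedanib, 879, 1082, 1811 and 660.3 with alpelisib and 2514, 1828, 1436 and 973 with the combination. The same 2 libraries were its highest. Its difference for nintedanib averaged over alpelisib was 0.59, and 0.31 without them. Tpi1, triose phosphate isomerase, moved from 0.41 to 0.30 in the same way, with libraries nintedanib 4 and combination 1 at 1439.9 and 1368. Aldoc, the aldolase typical of brain, differed by 0.49 (-0.16 to 1.13) for nintedanib averaged over alpelisib, and by 0.87 without these 2 libraries (limma adjusted p 0.139).

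Pgk1, phosphoglycerate kinase and the first ATP-yielding step of glycolysis, had the smallest p of the members for nintedanib averaged over alpelisib. It was at 752, 649, 1040.4 and 1137 in vehicle, 1579, 1490.1, 1317 and 1125 with nintedanib, 854, 729.9, 1269.6 and 685 with alpelisib and 1178, 1254, 1678 and 1562 with the combination. All 4 combination libraries were above all 4 vehicle libraries, nintedanib 4 was just below vehicle 4, and alpelisib 3 lay within the range of the nintedanib-treated groups. The difference from vehicle was 0.65 ± 0.22 (SE) for nintedanib, -0.02 ± 0.22 for alpelisib and 0.69 ± 0.22 for the combination.

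In limma the adjusted p of Pgk1 was 0.647 for nintedanib and 0.395 for the combination against vehicle. For nintedanib averaged over alpelisib the difference was 0.68 (0.36 to 1.0), with an adjusted p of 0.113. Without alpelisib 3 it was 0.77 with an adjusted p of 0.0367, in a fit that called 23 of 17381 genes. Without the 2 muscle-rich libraries the difference of Pgk1 was 0.77 as well, and the Pgk1 values of these 2 libraries were the lowest of their groups.

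Ldha, the lactate dehydrogenase subunit that turns pyruvate into lactate, was at 2339, 1632, 2429.6 and 2248 in vehicle, 2747, 2519, 2663 and 4236 with nintedanib, 1903, 2055, 2669 and 1769.5 with alpelisib and 3904, 2797, 3152 and 3252 with the combination. Its combination libraries did not overlap those of vehicle or of alpelisib, and its nintedanib libraries did not overlap those of vehicle. Its highest values were in nintedanib 4 and combination 1. The fitted difference was 0.48 (0.05 to 0.91) for nintedanib against vehicle and 0.61 (0.18 to 1.04) for the combination, with limma adjusted p-values of 0.754 and 0.443. Without the 2 muscle-rich libraries the nintedanib value was 0.31 and the combination value 0.52.

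Groups without overlap were counted over all members. For nintedanib against vehicle 3 of 37 members (Angptl4, Pdk1 and Ldha) were higher in all 4 nintedanib libraries than in all 4 of vehicle, beside 1.95% of all genes. For the combination against vehicle 2 members (Pgk1 and Ldha) were, beside 2.01%, and for the combination against alpelisib 1 (Ldha), beside 1.37%. For alpelisib against vehicle 0 members were set apart in either direction, beside 1.15% higher and 0.955% lower. The count was also 0 in either direction for the combination against nintedanib (1.53% and 0.949% of all genes) and, over 8 libraries against 8, for nintedanib averaged over alpelisib (0.0286% and 0.0458%). No member was set apart on the lower side for nintedanib (1.74%) or the combination against vehicle (1.84%) or for the combination against alpelisib (1.49%). Each of these counts is of 3 genes or fewer, and the largest background share would be less than 1 gene of 37.

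Pgam1, the phosphoglycerate mutase of most tissues, had the second highest mean value and the smallest difference of the lower glycolytic steps, at -0.08 (-0.65 to 0.49) for nintedanib and 0.20 (-0.37 to 0.76) for the combination. Both turned sign when 1 library was left out, to 0.14 without nintedanib 4 (and also without vehicle 4) and to -0.0054 without vehicle 2. Its 16 libraries lay between 1519.5 and 3824, with nintedanib 4 lowest and alpelisib 3 highest. Eno1, the enolase that follows Pgam1, was listed with 3 reads in all, in 2 vehicle libraries, and could not be compared. Gm5506, a near-identical copy of Eno1, was at 23.9 to 80.9 in all 16 libraries, and human ENO1 held 553382 reads. Gapdh, Ldha, Pgk1, Tpi1, Aldoa and Pgam1 also have processed copies in the mouse genome, so reads of these genes may be split in ways the counting does not show.

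**Figure D3:**
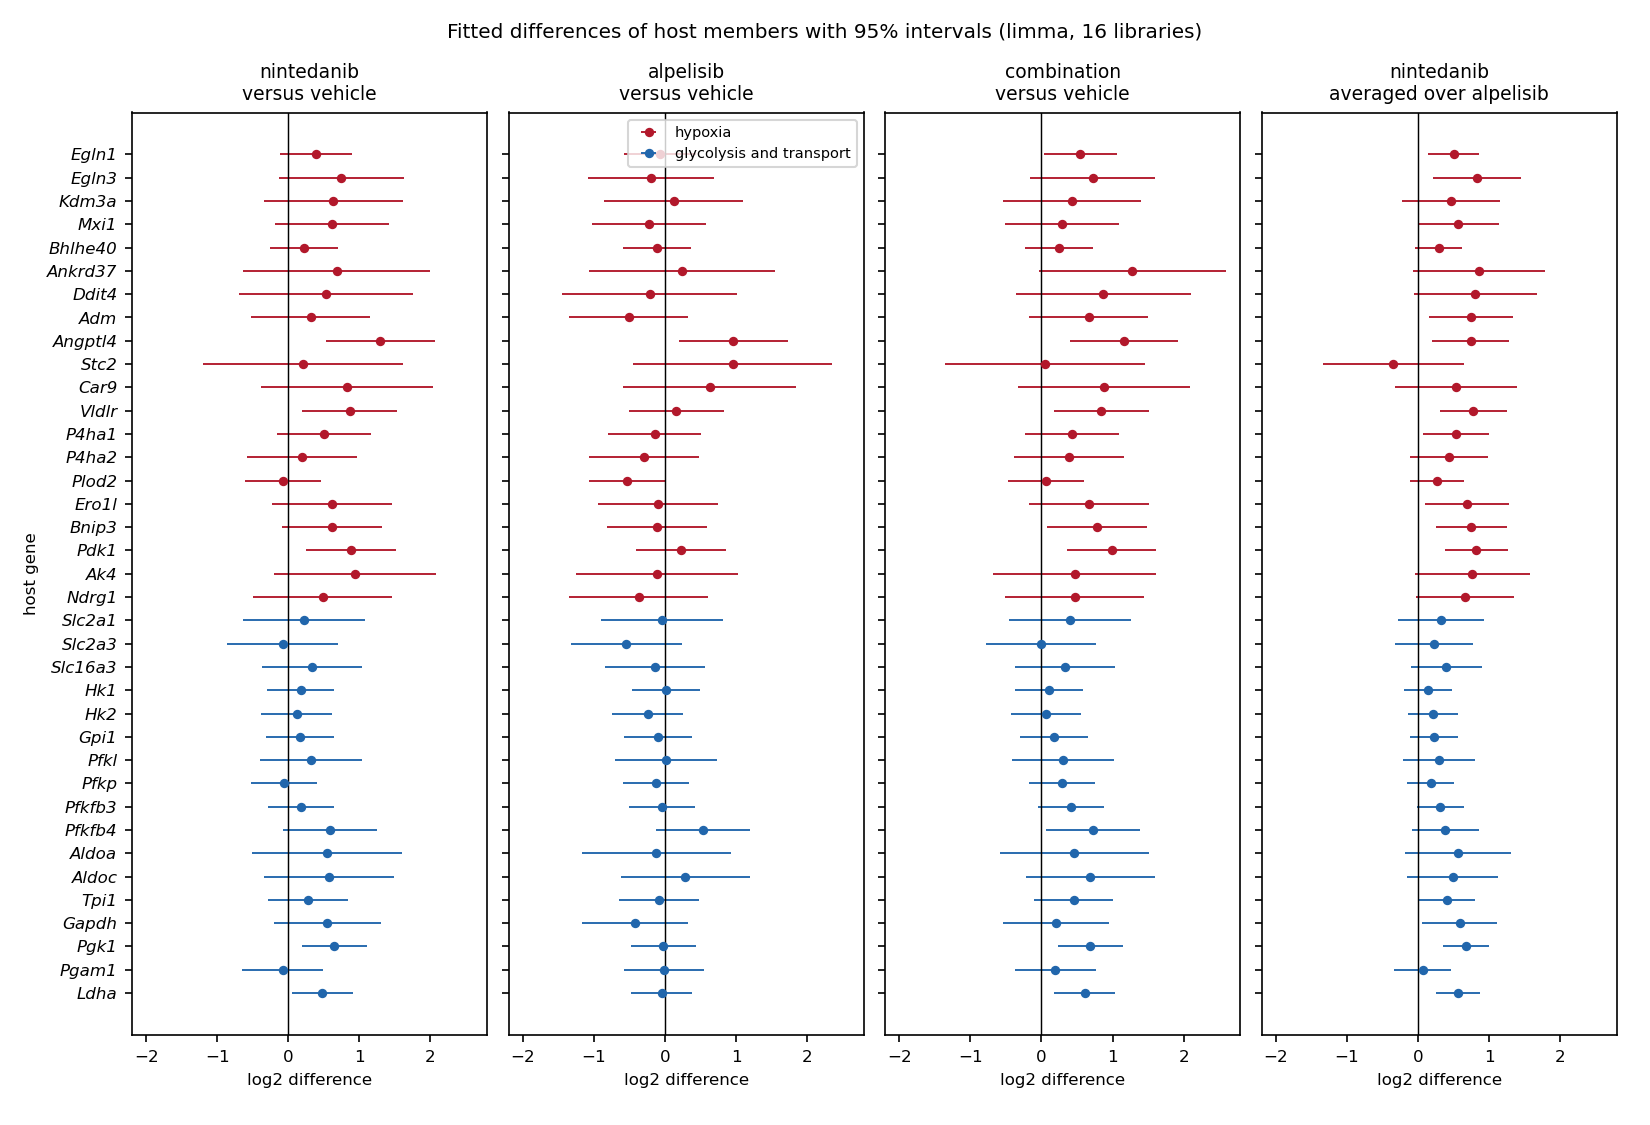
Fitted log2 difference (point) with its 95% interval (line) for 37 host genes in 4 comparisons, from limma over all 16 libraries; hypoxia genes are red and glycolysis and transport genes blue. Points lie mostly right of 0 except for alpelisib against vehicle, and most intervals cross 0.

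The hypoxia genes had larger medians than those of glycolysis and transport in the nintedanib comparisons, as a description of 2 lists with no test between them. The medians of the 20 hypoxia genes were 0.61 for nintedanib, -0.11 for alpelisib and 0.60 for the combination, and those of the 17 tested glycolysis and transport genes 0.28, -0.04 and 0.33. The nintedanib and combination medians of the second list were those that came to -0.01 and 0.06 without vehicle 2, and without alpelisib 4 the alpelisib medians were 0.10 for the hypoxia list and 0.06 for the other. The combination against nintedanib gave a median of 0.05 over all members with 23 of 37 above 0, beside 51.3% of all genes. The combination against alpelisib gave 0.54 with 36 of 37 above 0, beside 51.4%, and Pgk1, Ldha and Adm had the smallest p-values in it. The interaction had a median of 0.14 with 25 of 37 above 0, beside 48.9%, and the intervals were wide (median SE 0.49), so that a departure from the sum of both drugs was not detectable at this precision.

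Genes of the same pathways outside the set did not pass either. Of 63 listed genes, 59 were tested, and with limma 0 of 59 passed the adjusted threshold in any of the 7 comparisons. At an unadjusted p under 0.05, for nintedanib against vehicle 4 were higher (3.04%) and 1 lower (2.97%), for the combination against vehicle 4 and 0 (4.28% and 3.39%), for the combination against alpelisib 8 and 0 (2.77% and 2.99%), and for nintedanib averaged over alpelisib 12 and 0 (4.4% each way). For alpelisib against vehicle 0 were higher (2.01%) and 1 lower (1.25%). The oxygen-sensing machinery itself, from Hif1a and Epas1 to Vhl and Hif1an (9 genes), had a median of -0.20 for nintedanib and 0.12 for the combination, the latter -0.03 without vehicle 1. Hif1a, which encodes the oxygen-labile subunit HIF-1alpha, differed by 0.16 and 0.12 (-0.29 for the combination without combination 4), and Epas1, which encodes HIF-2alpha, by -0.21 and -0.17.

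Among 25 further targets of low oxygen, 19 were above 0 for nintedanib (median 0.36) and 21 for the combination (median 0.36), with medians of 0.14 and 0.29 without vehicle 2. Lox, the lysyl oxidase that cross-links collagen, differed by 0.87 for nintedanib with a limma adjusted p of 0.754, and Gbe1, the glycogen branching enzyme, by 0.82 with 0.754. Fam162a, a mitochondrial protein induced by HIF-1, was at 245, 178, 281 and 345 in vehicle and 335, 513, 743 and 680.2 with the combination, a difference of 1.09 with a limma adjusted p of 0.356. Combination 1 lay inside the vehicle range for this gene too. Vegfa, the main vessel growth factor, was at 350.4, 277, 529.8 and 497 in vehicle, 478, 760.3, 667 and 253 with nintedanib, 447, 232, 463 and 172 with alpelisib and 315, 499, 699.5 and 994 with the combination.

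Of 25 tested glycolysis isoforms and side branches, 18 were above 0 for nintedanib and 22 for the combination, with medians of 0.20 and 0.25. Hk3, the hexokinase of myeloid cells, differed by 1.99 for the combination with a limma adjusted p of 0.439. Arnt2, a partner of the HIF alpha subunits best known from neurons, had the smallest p for alpelisib against vehicle, at 12, 12.4, 18.1 and 16.4 in vehicle and 2.83, 2.08, 5.2 and 8.62 with alpelisib. All 4 alpelisib libraries were below all 4 of vehicle, beside 0.955% of all genes. The alpelisib difference of -1.59 had a limma adjusted p of 1. The nintedanib (3.52 to 10.3) and combination (8.03 to 11.2) libraries also lay below every vehicle library, beside 1.74% and 1.84% of all genes. Eno2, the enolase of neurons, differed by -0.51 for alpelisib. Pkm2, the symbol in this table for the pyruvate kinase of most tissues, differed by 0.31 for nintedanib and 0.25 for the combination, and by 0.08 and 0.02 without vehicle 2.

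Markers of several host cell types were also compared, and only 2 of them passed, both endothelial. The mean log2 difference of 9 endothelial markers from the vehicle mean was -0.17 to 0.21 in the vehicle libraries, -1.15 to -0.08 with nintedanib, -0.38 to 0.15 with alpelisib and -0.96 to -0.31 with the combination. For nintedanib averaged over alpelisib, Cdh5 fell by 0.91 and Esam fell by 0.82 on the log2 scale, with limma adjusted p-values of 0.0479 and 0.0343, and the other 7 did not pass. Within the nintedanib group, nintedanib 4 had both the endothelial value nearest to vehicle (-0.08) and the lowest mean over the 20 hypoxia genes (-0.23, against 0.75 to 1.02 in nintedanib 1 to 3). Within the combination group, combination 1 had the endothelial value nearest to vehicle (-0.31) and the lowest hypoxia mean (0.11, against 0.45 to 1.15). The same 2 libraries were the ones rich in muscle RNA. The hypoxia mean also varied within the other groups, from -0.86 to 0.45 in vehicle and from -0.28 to 0.53 with alpelisib. Their endothelial means ran from -0.17 to 0.21 and from -0.38 to 0.15. The parts of vessels and of muscle in the hypoxia values were not tested.

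The mean over 6 pericyte markers lay between -0.35 and 0.25 in the vehicle libraries, -0.66 and -0.17 with nintedanib, -0.45 and -0.35 with alpelisib, and -0.76 and -0.38 with the combination. For nintedanib averaged over alpelisib 6 of 6 were below 0 and 0 passed in limma. The 7 neutrophil markers had means of -0.31 to 0.18 in vehicle, 0.36 to 1.07 with nintedanib, 0.18 to 1.03 with alpelisib and -0.19 to 0.72 with the combination. Their summed value ran from 10127 to 18752 in vehicle and from 6984 to 22583 with nintedanib, and 0 of 7 passed in any comparison. Most of this sum was Mmp9, at 5271 to 19429 over all libraries, with S100a9 next at 273 to 1542. The 7 T cell markers had means of -0.61 to 0.64 in vehicle, -0.11 to 2.08 with nintedanib, -0.06 to 0.91 with alpelisib and 1.01 to 3.49 with the combination. They were low, with a summed value of 70.9 to 118 in vehicle and 109 to 479 with the combination, Cd3e at 0 in 7 of 16 libraries, and 0 of 7 passed. Cd4 had the highest median of these markers, 75.7, and Lck the next, 8.53. The part of these cells in the values of the members was not tested.

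The same symbols in the human table followed the host genes from library to library. Across the 16 libraries, the host and the human log2 value had a positive Pearson correlation that passed in 22 of 37 genes (permutation p adjusted by Benjamini-Hochberg over all 12712 same-symbol pairs), beside 10.8% of all pairs. By Spearman's rank correlation 16 of 37 passed, beside 6.53%. The median r was 0.73 over the members and 0.25 over all pairs, and 21 members exceeded 0.7, beside 8.39%. Leaving out for each gene the 2 libraries farthest from its median human value gave a median r of 0.61, and deviations from the group means gave 0.70. The points of 1 library share depth, the size factors and the piece of tissue, and reads were mapped to each genome separately.

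Hypoxia genes carried most of this correlation. Of the 20 hypoxia genes 16 passed by Pearson's r (median 0.78), and of the 17 glycolysis and transport genes 6 (median 0.56). All 7 oxygen-sensing and regulatory genes passed by both measures. Bnip3 had the highest r, 0.91 (permutation p 1e-05, the smallest that 100000 resamples can give; adjusted p 0.00148), with rho 0.88 (p 3e-05; adjusted p 0.00424), and r 0.91 without its 2 farthest libraries. Egln3 had r 0.90 (permutation p 2e-05; adjusted p 0.00199) and rho 0.85 (p 2e-05; adjusted p 0.0038), and Ddit4 had r 0.90 (permutation p 2e-05; adjusted p 0.00199) and rho 0.84 (p 0.0001; adjusted p 0.00805). Without their 2 farthest libraries r was 0.90 for Egln3 and 0.81 for Ddit4.

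The human values of these genes show the pairing of the 2 tables directly. BNIP3 in the tumour cells was at 3815, 1929.7, 4919.6 and 5639.9 in vehicle, 5672, 6714, 5459.7 and 3279.9 with nintedanib, 3526, 2228, 4819.7 and 3243 with alpelisib and 5037, 5307, 8338 and 5543 with the combination. Vehicle 2 was lowest in both tables and combination 3 highest in both. EGLN3 was at 1033, 539.7, 1649 and 1688 in vehicle and 1205, 675, 2160.1 and 697 with alpelisib. Vehicle 2 and alpelisib 2 and 4 were its lowest libraries, and in the host gene alpelisib 4 and vehicle 2 were the lowest.

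Aldoa, Pfkfb4, Angptl4 and Ldha did not pass. Aldoa had r -0.02 (permutation p 0.932; adjusted p 0.974) and rho 0.16 (p 0.564; adjusted p 0.792), Pfkfb4 had r 0.03 (permutation p 0.902; adjusted p 0.963) and rho 0.01 (p 0.978; adjusted p 0.993), and Angptl4 had r 0.42 (permutation p 0.108; adjusted p 0.324) and rho 0.34 (p 0.198; adjusted p 0.48). Pgk1 passed with r 0.82 (permutation p 3e-05; adjusted p 0.00235) and rho 0.79 (p 0.00044; adjusted p 0.018), with r 0.74 without its 2 farthest libraries. Pdk1 had r 0.67 (permutation p 0.00428; adjusted p 0.043) and rho 0.65 (p 0.00835; adjusted p 0.0846), and r 0.54 without its 2 farthest libraries. Ldha had r 0.43 (permutation p 0.0953; adjusted p 0.301) and rho 0.42 (p 0.107; adjusted p 0.353).

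Among the tested pathway genes outside the set, 15 of 56 with a pair passed by Pearson's r, beside 10.8% of all pairs, and 11 of 56 by Spearman's rho, beside 6.53%. Pgf, a VEGF relative made by many stromal cells, had r 0.88 (permutation p 3e-05; adjusted p 0.00235) and rho 0.84 (p 0.00013; adjusted p 0.00928). Vegfa had r 0.86 (permutation p 3e-05; adjusted p 0.00235) and rho 0.89 (p 2e-05; adjusted p 0.0038), and Hif1a had r 0.79 (permutation p 6e-05; adjusted p 0.00329) and rho 0.74 (p 0.00159; adjusted p 0.034).

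**Figure D4:**
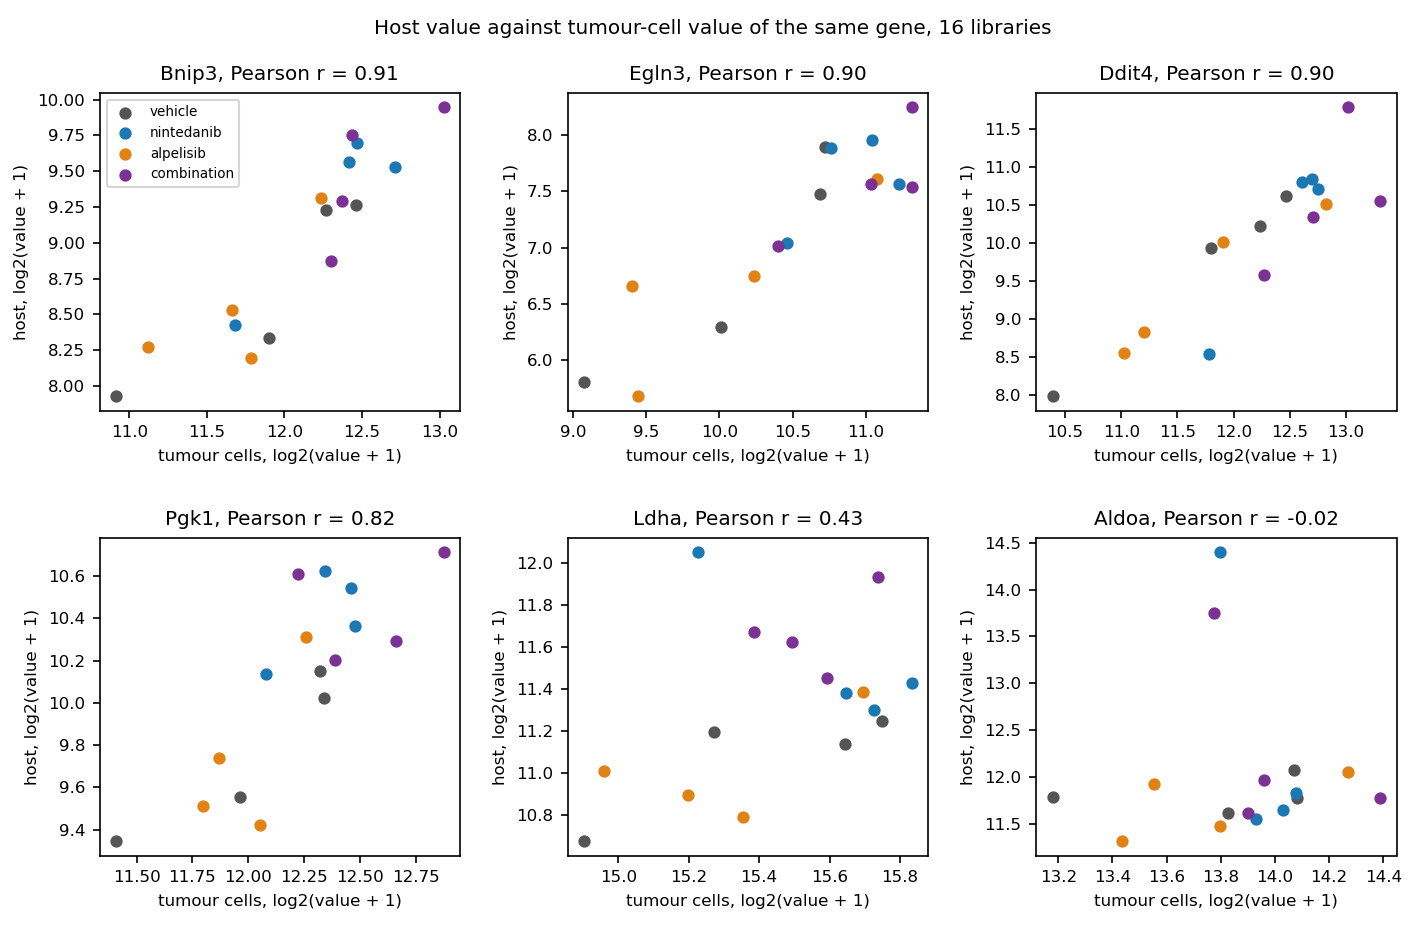
Host log2(normalised value + 1) on the vertical axis against the human log2(normalised value + 1) of the same gene on the horizontal axis, 1 point per library coloured by treatment, for 6 genes with Pearson's r above each panel. The points of Bnip3, Egln3, Ddit4 and Pgk1 lie along a rising line, whereas in Aldoa 2 libraries stand far above the rest in the host alone.

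Over all 37 tested members, the same symbols in the human table had medians of the same sign as those of the host. The human medians were 0.33 for nintedanib, -0.09 for alpelisib and 0.46 for the combination against vehicle, and 0.50 for nintedanib averaged over alpelisib, and 0 of these 37 human genes passed the adjusted threshold of limma in any of these comparisons, beside 0% of all 17663 human genes tested. At an unadjusted p under 0.05, 8 of them were higher for nintedanib against vehicle (6.88% of all human genes tested), 12 for the combination (4.47%) and 19 for nintedanib averaged over alpelisib (7.2%), with 0 for alpelisib (1.69%). The 17 glycolysis and transport genes had human medians of 0.08 for nintedanib and 0.18 for the combination, beside 0.28 and 0.33 in the host. The 20 hypoxia genes had 0.63 and 0.67, beside 0.61 and 0.60. Vehicle 2 was below the 16-library median for 37 of 37 human genes, and the human values were not fitted without it. For nintedanib against vehicle the fitted difference was of opposite sign in the 2 tables for Aldoc, Hk1, Pfkl, Plod2, Slc16a3 and Slc2a3, and the host values of all of these but Aldoc turned sign when 1 library was left out. Angptl4, with the highest host difference for nintedanib (1.29), had a human difference of 0.28. Aldoc had 0.57 in the host and -0.13 in the human table, and Slc16a3 0.33 and -0.18. Human PLOD2 had means of 284 ± 146 in vehicle and 539.9 ± 101 with nintedanib, a difference of 1.06, where the host gene had -0.08. Human SLC2A3 had 20.9 ± 15 and 43.9 ± 15.1, a difference of 1.25, where the host gene had -0.08. PLOD2, SLC2A3 and SLC16A3 had 7057, 558 and 6172 human reads over all libraries, beside 6913, 897 and 16332 mouse reads. Mouse reads could be counted in the human table for such genes, and their part in the human values was not tested. A test between the species was not made, because both tables come from the same libraries.

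Human reads of conserved sequence could be counted in the mouse table, and the ratio of mouse to human reads bounds how many. The lowest ratio of a gene over the 16 libraries is the most that cross-mapping at a constant rate can contribute. Over all libraries the members had a median of 231 mouse reads per 1000 human reads, from 0.00542 (Eno1) and 14.2 (Gapdh) to 2646 (Slc16a3). The 20 epithelial genes of the tumour cells, such as Krt6a and Dsp, served as a reference, with a median lowest ratio of 2.34 and a highest of 55.4 (Grhl2). Host skin and hair markers made up 0.0273% to 0.295% of mouse reads, so the epithelial ratios may include reads of host epithelium. Where no library was at 0, these ratios varied from 2.49-fold (Itgb4) to 90.9-fold (Krt6a) between libraries. They are not measured cross-mapping rates, and the part of host epithelium was not tested. The lowest ratio of a member had a median of 119, and 26 of 38 members were above 55.4 in every library.

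The other 12 members came within the range of the epithelial reference in some library. Among them were Gapdh (7.06 to 56.5 per 1000 across libraries), Ak4 (6.14 to 45.9), Car9 (8.93 to 273), Ndrg1 (28.3 to 79.5) and Ldha (31.0 to 168). Angptl4 (36.3 to 533), with its lowest ratio in vehicle 3, was among them too, and Adm, Aldoc, Ankrd37, Stc2, Tpi1 and Eno1 were the others. If cross-mapping ran at the ratios of the epithelial genes, it could make up a larger part of the values of these members. Slc16a3 (1511 to 3792), Slc2a3 (672 to 7333) and Plod2 (612 to 2256) had the highest ratios. At the epithelial ratios, cross-mapping could make up a smaller part of their host values. The cross-mapping rate of each member was not measured, so the ratios alone do not rank the members by exposure. Mxi1 (398 to 618) and Ddit4 (160 to 282) varied little in ratio, by 1.55-fold and 1.76-fold between the lowest and the highest library. The part of cross-mapped reads in the correlations between tables was not tested.

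**Figure D5:**
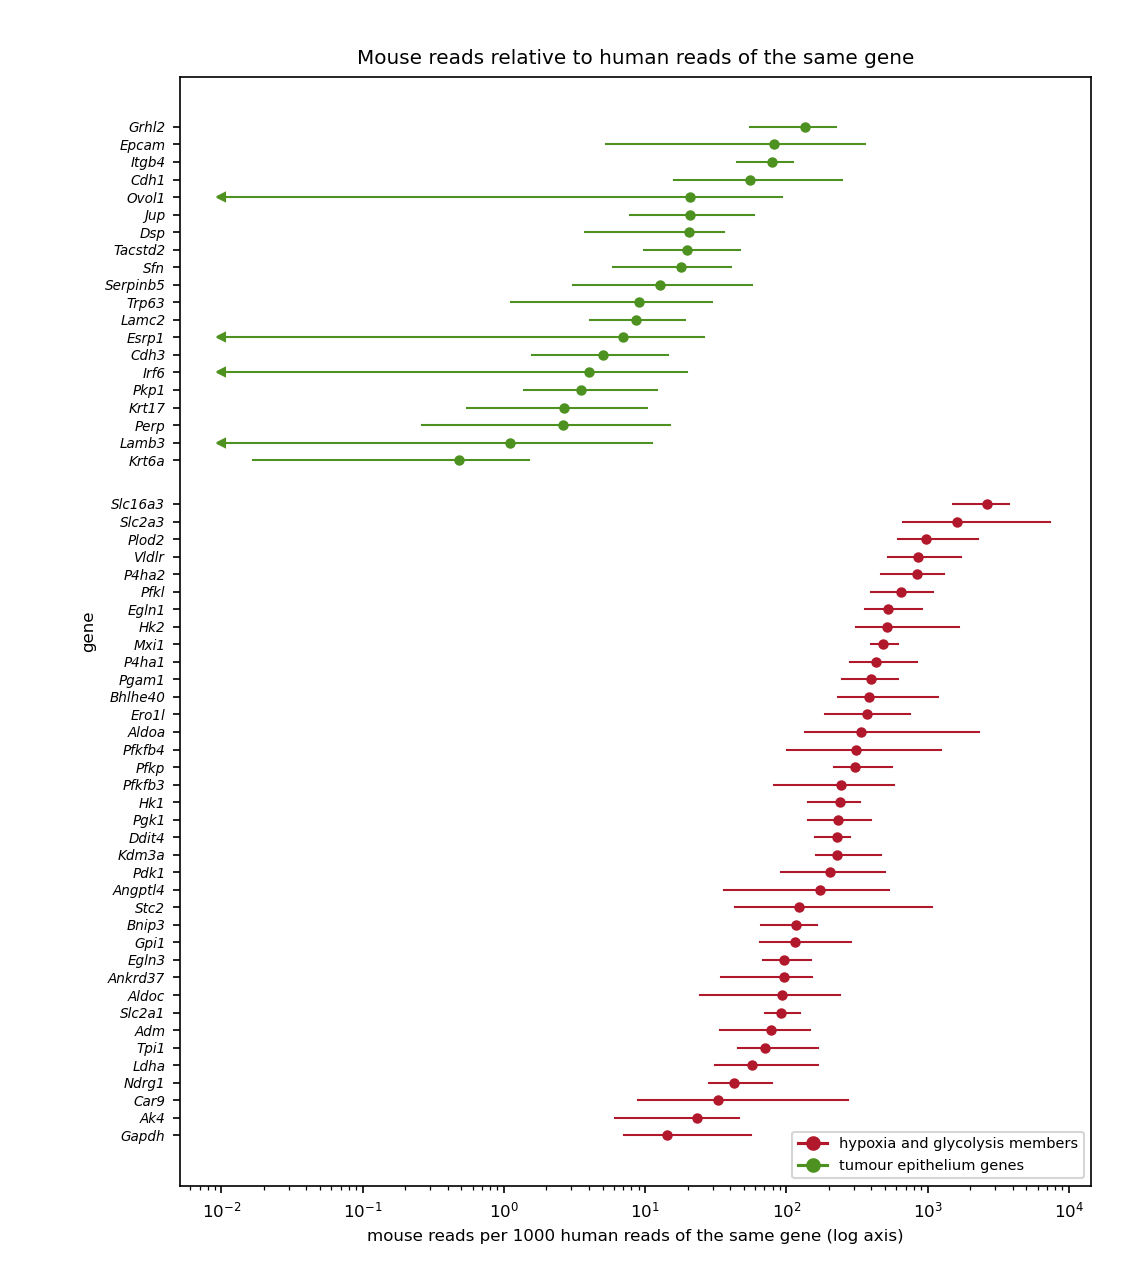
Mouse reads per 1000 human reads of the same gene (log axis), over all 16 libraries together (point) and from the lowest to the highest library (line), for 20 epithelial genes of the tumour cells (green) and 37 members (red, without Eno1); arrows mark genes with a library at 0. The points of most members lie to the right of every epithelial point, the highest of which is Grhl2 at 136. Those of Gapdh, Ak4, Egln3 (96.5) and Bnip3 (117), among others, lie within the epithelial range.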

How the data were processed

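RNA of 16 xenograft libraries was read with a 3′ tag kit, 75-bp reads. The submitters' processing notes name TopHat, hg19 and mm10. How reads were counted, with which annotation and strand setting, and how they were scaled is not given in the sources used here. The deposited tables hold signal, a normalised expression value that the authors made from reads of each gene and library. Every value was a whole number of reads times 1 factor per library (100% of values within 0.01 read), so whole reads were recovered. Depth is given with the report, and since no molecular identifiers were used, reads of 1 molecule may repeat and depth speaks for counting error only. Reads mapped to each genome separately can be counted in both tables when sequence is conserved.

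Values were analysed as log2(value + 1), which understates differences of low genes. A mouse gene was tested where 4 or more libraries had a value of 1 or higher, and was fitted with 1 mean per group over all 16 libraries by limma 3.58.1 (trend) in R 4.3.3. For each of 7 comparisons, Benjamini-Hochberg adjustment ran over 17484 genes, with a threshold of 0.05. The plan set out a branch for counts and a branch for normalised values, and the second was followed. Alternatives included edgeR 4.0.16 and DESeq2 1.42.0 on recovered reads, which called 12 and 158 of all genes for nintedanib averaged over alpelisib, where limma called 17. The fit and the correlation step were tested on simulated data. Correlations used 100000 permutations. Their adjustment ran over all 12712 same-symbol pairs, a departure from the plan, which had set it over the members. Member and human symbols were matched by name, with older symbols for a few genes.

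The members and lists were chosen with earlier results of these data known. Genes were named by rule: those past the threshold, the 4 members with the smallest p against vehicle in each of 3 comparisons, the 3 highest and 3 lowest in mean value and in read ratio, and 2 pathway genes per comparison with vehicle. Same-numbered libraries did not deviate together (r from -0.29 to 0.17 over 24 pairs), so numbers were not used as pairs. No coordinates or sequences are given, because none of the files' build was used here.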

Additional observations from a re-analysis of the deposited data

Results flagged for a closer look

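In groups of 4 libraries, 76 sets of values were examined for a library far from its group (its gap to the nearest library, as a share of the group's range, above Dixon's 95% critical value), and 7 were found. Chance alone gives about 1 in 20 such groups. In nintedanib 4, the library with the most muscle RNA, Ldha was at 4236 and Aldoa at 21609, above the rest of the group. In combination 1, the other library rich in muscle RNA, Aldoa was at 13755, above its group, and Slc16a3 was at 640.4, below it. In alpelisib 3 Pgam1 was at 3824, above its group, and in alpelisib 4 Ankrd37 was at 5.48, below it. In vehicle 2 the mean log2 value of the 17 glycolysis and transport genes was -0.57 relative to the vehicle mean, below the other vehicle libraries, which lay between 0.15 and 0.24.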

How the results depend on the processing

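With 4 libraries a group, the median standard error of a member was 0.34 on the log2 scale for nintedanib against vehicle, which limits what could be detected. The counts of members past the threshold were 0 under each alternative run in 6 comparisons (30 for each pair of groups and 29 for the interaction, for which a fit of only the groups compared does not exist). For nintedanib averaged over alpelisib they were 3 with DESeq2 (Pgk1 0.65, Pdk1 0.84 and Ldha 0.57), 1 without the 2 muscle-rich libraries (Pdk1, 1.01), and 0 to 1 when 1 library was left out (Pgk1, without alpelisib 3).

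Leaving out 1 library moved the member median from 0.24 to 0.55 for nintedanib against vehicle, -0.28 to 0.06 for alpelisib, 0.30 to 0.60 for the combination, -0.13 to 0.17 for the combination against nintedanib, 0.40 to 0.70 for the combination against alpelisib, -0.05 to 0.33 for the interaction and 0.43 to 0.59 for nintedanib averaged over alpelisib. The sign of the alpelisib, combination against nintedanib and interaction medians thus turned with 1 library.

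Subtracting the largest possible cross-mapped share sets 1 library of each gene to 0 by construction and moves the median of all genes too (0.18, 0.25, 0.20, -0.33 and 0.07 in the order that follows). It gave member medians of 1.62 for nintedanib, 0.82 for alpelisib, 1.82 for the combination, -0.96 for the interaction and 1.21 for nintedanib averaged over alpelisib, and turned Vldlr to -0.74 for nintedanib and -0.45 for nintedanib averaged over alpelisib. For most tested members the library set to 0 was a vehicle library, such as vehicle 3 for Pgk1 and Ldha. For others it was a drug-treated library, such as nintedanib 3 for Vldlr and combination 4 for Egln1. A vehicle library at 0 raises the differences from vehicle by construction, so these larger medians do not measure the part of cross-mapping.

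Scaling to human plus mouse reads moved the median of all genes to 0.14 for nintedanib, 0.23 for alpelisib, 0.32 for the combination and 0.18 for the combination against nintedanib. The member medians were then 0.62, 0.14, 0.78 and 0.24, so that the alpelisib median turned above 0 while staying below that of all genes. For the combination against nintedanib the median was 0.31 with the cross-mapped share subtracted, and 0.03 to 0.10 under the remaining settings other than leaving out single libraries.

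The median correlation between the tables, 0.73, was 0.70 for deviations from the group means, 0.61 without the 2 farthest libraries, 0.75 without the 2 muscle-rich libraries, and 0.66 to 0.74 without 1 library at a time.

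With the replicate number as a block, 0 members passed in any comparison, and the member median for nintedanib averaged over alpelisib was 0.50, while all genes called were 12 instead of 17. The numbers do not pair the libraries: 3 of 24 pairs correlated above 0.1, and 4 of 16 libraries correlated best with their own number.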
